A study of Homo sapiens with 12 samples.

Results

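The clustered protocadherins are cell surface proteins of the cadherin superfamily, encoded by 3 neighbouring gene clusters on chromosome 5. All protein-coding genes of the GENCODE annotation with a symbol starting PCDHA, PCDHB or PCDHG in these clusters were taken, which gave 53 of 20046 protein-coding genes. They fall into 15 PCDHA, 16 PCDHB and 22 PCDHG genes, and every one of them is transcribed from the plus strand. H3K27me3, the trimethylation of lysine 27 of histone 3 made by the Polycomb Repressive Complex 2, was mapped by chromatin immune precipitation and sequencing in SH-SY5Y, an established human neuroblastoma cell line. Cells that express Tau (WT) were compared with the Tau-KO lines 231K and 232P, in which MAPT, the gene of Tau, is knocked out, with 2 replicates of each. The labels name no treatment, and a peak list was available for each of the 6 ChIP samples. The knock-out lines differ from WT in their derivation as well as in Tau, and the genotype labels do not say whether each is 1 clone. Replicates are biological duplicates of a line, so p-values describe the spread between these samples and not between independent knock-outs. The peaks in both lists labelled 232P carry names with 231P, which is the name of another Tau-KO line of the study. The labels were followed, and which of these lines the values given for 232P come from cannot be told apart here. Each of the 6 lists holds more peaks than the study's methods state, so the lists are not the peak sets described there. The samples also stood apart by replicate number in all genotypes. The median peak width was 441, 440 and 335 bp in replicate 1 of WT, 231K and 232P and 682, 688 and 666 bp in replicate 2, and the highest summit had 469, 551 and 533 reads against 148, 188 and 111. The labels name no batch, and both sets hold 1 sample of each genotype.

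In each PCDHA and PCDHG gene, a large variable first exon with a promoter of its own encodes the extracellular domains and the membrane span. It is spliced to constant exons shared by the whole cluster, whereas PCDHB genes lack shared constant exons. A neuron chooses a few of these promoters, partly at random, with CTCF and cohesin looping the chosen promoter to a distant enhancer, and the resulting protein set gives the cell an identity used in self-avoidance of its neurites. The C-type genes PCDHAC1, PCDHAC2, PCDHGC3, PCDHGC4 and PCDHGC5 are expressed more uniformly than the others. DNA methylation and H3K9 methylation are known to keep unchosen promoters silent.

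A short element named after its core CGCT lies upstream of most variable exons of these genes. The letters CGCT alone also occur in 81.5% of all promoters, so a match marks the letters and not the whole element. The 120 bases before the first annotated start of an alternate gene of each cluster and of a C-type gene follow. They are read from hg38 on the plus strand with every CGCT, searched on both strands, in capitals. PCDHA4 is at chr5:140806917-140807036, PCDHB2 at chr5:141094486-141094605, PCDHGA3 at chr5:141343709-141343828 and PCDHGC3 at chr5:141475827-141475946.
PCDHA4: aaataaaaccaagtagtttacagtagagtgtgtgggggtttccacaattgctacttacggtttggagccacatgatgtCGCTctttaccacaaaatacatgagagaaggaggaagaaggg
PCDHB2: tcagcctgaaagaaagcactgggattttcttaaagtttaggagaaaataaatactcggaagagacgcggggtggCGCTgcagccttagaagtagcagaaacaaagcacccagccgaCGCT
PCDHGA3: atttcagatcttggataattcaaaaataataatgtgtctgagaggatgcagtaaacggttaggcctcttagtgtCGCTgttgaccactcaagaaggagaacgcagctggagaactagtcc
PCDHGC3: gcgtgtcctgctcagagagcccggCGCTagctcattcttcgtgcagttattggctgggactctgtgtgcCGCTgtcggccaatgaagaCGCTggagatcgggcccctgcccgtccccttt

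No protocadherin of the clusters had an H3K27me3 peak within 1 kb of its start site, here called a TSS mark, in any of the 6 samples. The count was 0 of 53 in both WT samples, in both 231K samples and in both 232P samples, and it was 0 of 15 for PCDHA, 0 of 16 for PCDHB and 0 of 22 for PCDHG. Over all protein-coding genes, 19.2% had a TSS mark in at least 1 of the 6 samples and 8.52% had one in all 6. The share per sample over all genes was 15.5% and 15.7% in WT, 14.1% and 15.4% in 231K, and 11.8% and 12.9% in 232P. The 53 start sites lie side by side in a span of 727 kb, so they are not independent of each other, and the count stands for 1 stretch of chromatin rather than for 53 separate observations. In bulk chromatin, a mark carried by few of the cells and a low level in all of them cannot be told apart.

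The same held when the 59 exons of the canonical transcripts were taken in place of the start sites. These hold 166249 bases, with a median length of the first exon of 2532 bp in PCDHA and 2598.5 bp in PCDHG. No peak of any of the 6 samples overlapped one of these exons. Peaks within the gene body, introns included, were found for PCDHA1, PCDHA2, PCDHA3 and PCDHA4 in WT replicate 2 and for PCDHA1 in 231K replicate 1, and for no other member in any sample. PCDHA genes overlap because each runs to the shared constant exons, so 1 peak can lie in several of them. Between 18.5% and 22.0% of all protein-coding genes had a peak in the gene body in a sample.

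The clusters were nearly free of peaks along their whole length, not only at the promoters. PCDHA spans chr5:140786136-141012347, PCDHB spans chr5:141051374-141249365 and PCDHG spans chr5:141330514-141512977. WT replicate 1, 231K replicate 2 and 232P replicate 1 had no peak within the 3 clusters. WT replicate 2 had 2 peaks in PCDHA with 653 covered bases, which is 0.108% of the 3 clusters. 231K replicate 1 had 1 peak in PCDHA with 423 covered bases, or 0.0697%. 232P replicate 2 had 1 peak in PCDHB with 458 covered bases, or 0.0755%. No sample had a peak in PCDHG, the cluster with the most members. On the whole of chromosome 5, peaks covered 6.85% and 9.58% in WT, 6.29% and 9.72% in 231K, and 1.91% and 7.24% in 232P.

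**Figure D1:**
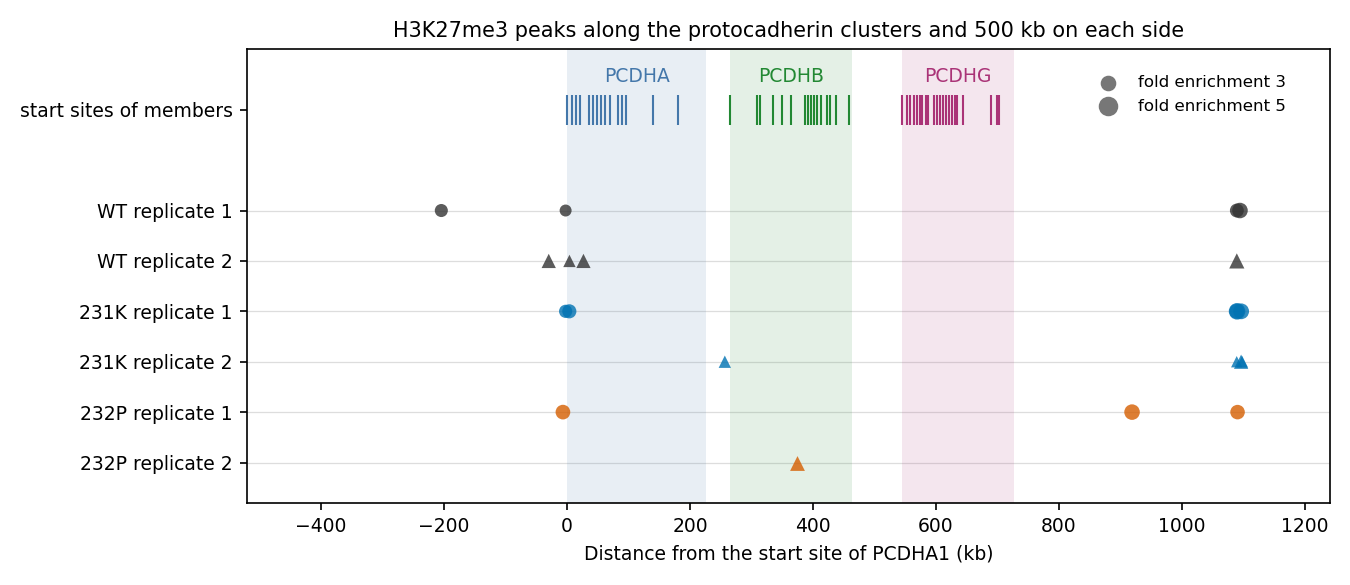
H3K27me3 peaks (symbols, sized by fold enrichment and not to scale in width) of the 6 samples against the distance from the start site of PCDHA1 in kb, with the start sites of the 53 members as ticks and the clusters shaded. WT replicate 2 has 2 peaks and 231K replicate 1 has 1 peak in PCDHA, 232P replicate 2 has 1 peak in PCDHB, and the PCDHG row of ticks has no peak below it.

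The peaks that did lie in or beside the clusters were short and few reads high. The fold enrichment is the number of reads at the summit over the local background, with 1 added to each, and the -log10 q-value states how far the summit stands above that background after correction for all tests in the list. In WT replicate 2, the peak at chr5:140789913-140790206 had a fold enrichment of 2.52, a -log10 q-value of 1.27 and 5 reads at the summit. It lay 3.77 kb downstream of the start of PCDHA1, in an intron. The second peak of this sample, at chr5:140812683-140813041, had a fold enrichment of 3.34, a -log10 q-value of 2.41 and 7 reads, 5.62 kb downstream of the start of PCDHA4, over an exon of a transcript of PCDHA4 that is not the canonical one. In 231K replicate 1, the peak at chr5:140789675-140790097 had a fold enrichment of 3.28, a -log10 q-value of 2.12 and 7 reads. In 232P replicate 2, the peak at chr5:141160596-141161053 had a fold enrichment of 3.61, a -log10 q-value of 2.67 and 8 reads, 10.5 kb downstream of the start of PCDHB6. Measured against their own lists, these 4 peaks had a higher -log10 q-value than 2.89%, 28.7%, 28.8% and 46.4% of the peaks, so none stood in the upper part of its list. The median summit of a list was 7 to 9 reads and the highest was 111 to 551 reads.

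Within the clusters, 1 stretch was called in more than 1 sample. This stretch of 185 bp in the intron of PCDHA1, at chr5:140789913-140790097, was shared by WT replicate 2 and 231K replicate 1. It is shown as the place where 2 samples agreed in position, and it holds no CG pair. Every window of 50 bases in it occurs 1 time in hg38.
Intron of PCDHA1: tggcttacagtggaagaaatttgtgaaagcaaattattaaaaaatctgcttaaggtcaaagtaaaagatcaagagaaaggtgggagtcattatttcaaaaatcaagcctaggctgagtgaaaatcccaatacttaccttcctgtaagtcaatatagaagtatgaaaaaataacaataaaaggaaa

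The gap between PCDHA and PCDHB held 1 peak, in 231K replicate 2. It lay at chr5:141042500-141042980 with a fold enrichment of 2.51, a -log10 q-value of 1.37 and 6 reads, 8.39 kb upstream of the start of PCDHB1. No replicate of the same genotype repeated a peak of the other within the clusters or their gaps.

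The distance from a start site to the nearest peak of the sample shows how far the members were from the mark. PCDHA1, the first gene of the region, was 2.21 and 3.77 kb from a peak in WT, 2.17 and 256 kb in 231K, and 6.55 and 374 kb in 232P. In each Tau-KO line, replicate 1 was close to a peak and replicate 2 was far from one. PCDHA2 was 10.9 and 4.65 kb from a peak in WT, 4.75 and 248 kb in 231K, and 15.3 and 366 kb in 232P. PCDHB1 was 267 and 238 kb from a peak in WT, 261 and 8.39 kb in 231K, and 272 and 109 kb in 232P. PCDHB2 was between 51.6 kb in 231K replicate 2 and 315 kb in 232P replicate 1 from a peak. PCDHB15, the last gene of the cluster, was between 84.3 kb in 232P replicate 2 and 461 kb in WT replicate 1 from one. PCDHGA1 was between 169 kb in 232P replicate 2 and 545 kb in WT replicate 1 from a peak, and PCDHGA2 between 178 kb and 536 kb in 232P replicate 2 and 231K replicate 1. The distances in 231K overlapped those in WT for each of these genes. Those in 232P overlapped WT for PCDHB1, PCDHB2 and PCDHB15, while both 232P samples were farther from a peak than both WT samples at PCDHA1 and PCDHA2 and nearer to one at PCDHGA1 and PCDHGA2. These distances were not tested, and each is set by the position of 1 peak, mostly outside the clusters.

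The C-type genes, which do not take part in the random choice in the same way, lay between 76.0 and 399 kb from the nearest peak. PCDHAC1 was between 113 kb in WT replicate 2 and 234 kb in 232P replicate 2 from it. PCDHAC2 was between 76.0 kb in 231K replicate 2 and 194 kb in 232P replicate 2 from one. PCDHGC3, PCDHGC4 and PCDHGC5 were between 216 kb, for PCDHGC5 in 232P replicate 1, and 399 kb, for PCDHGC3 in 231K replicate 1, from one. Both 232P samples were farther from a peak than both WT samples at PCDHAC1 and PCDHAC2 and nearer at PCDHGC3, PCDHGC4 and PCDHGC5, whereas 231K overlapped WT for all 5 genes. Over all 53 members the median distance was 399 and 386 kb in WT, 397 and 221 kb in 231K, and 312 and 222 kb in 232P.

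**Figure D2:**
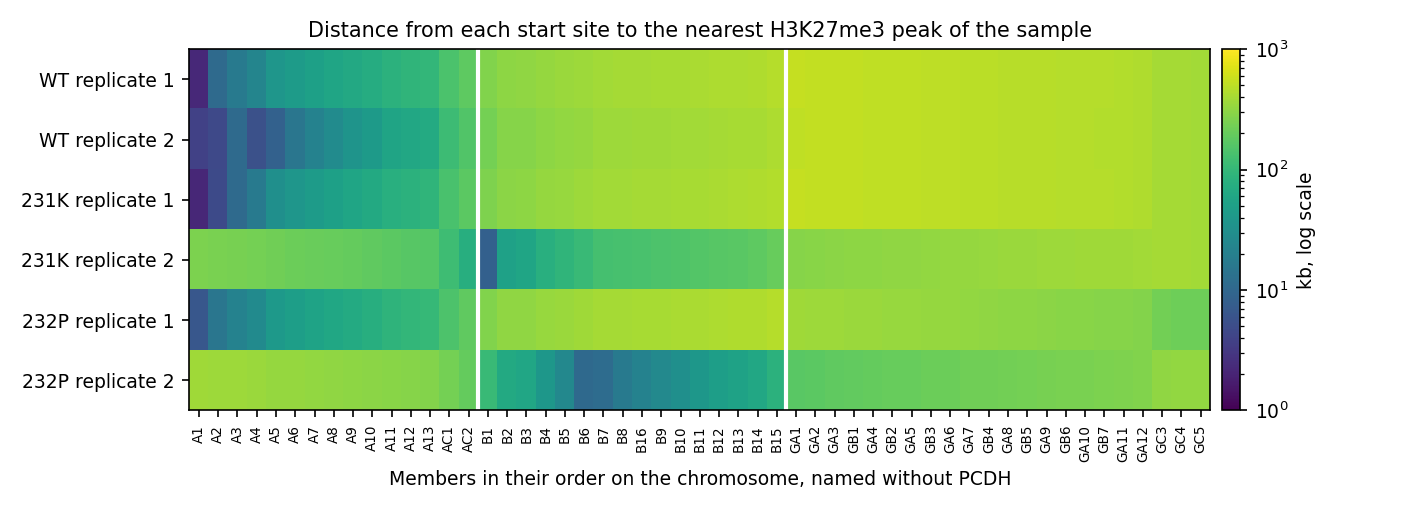
Distance from the start site of each member (columns, in chromosomal order) to the nearest H3K27me3 peak of each sample (rows), in kb on a logarithmic colour scale. PCDHA1 is 2.21, 3.77, 2.17 and 6.55 kb from a peak in WT replicates 1 and 2, 231K replicate 1 and 232P replicate 1, and PCDHG genes are 169 to 545 kb from one in every sample.

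No difference between the Tau-KO lines and WT at the clusters passed a test. No member lost a TSS mark in 231K or in 232P, since none had one in both WT samples, and no member of 53 gained one. A loss, a TSS mark in both WT samples and in neither sample of a line, was seen for 3.6% of the 2749 genes with the mark in both WT samples in 231K and for 8.55% in 232P. A gain, the opposite, was seen for 0.224% of the 16541 genes without the mark in either WT sample in 231K and for 0.0967% in 232P. The count of 0 gains among 53 members is close to this background. In WT, the mean covered percent of the 3 clusters was 0.0538 ± 0.0761 (SD, n = 2). In line 231K it was 0.0349 ± 0.0493 and in line 232P 0.0377 ± 0.0534 (SD, n = 2 for each). The difference from WT was -0.0190 percentage points in 231K and -0.0161 in 232P, with p = 1 for each in the exact permutation test, two-sided. For the 4 Tau-KO samples together it was -0.0175 percentage points, with p = 0.6 in the same exact test. These exact tests cannot go below p = 0.333 with 2 against 2 samples and p = 0.0667 with 4 against 2, and each difference is smaller than the spread between replicates. The difference of each line from WT rests on 3 peaks, and that of both lines on 4. Within replicate 1, the covered percent was 0 in WT, 0.0697 in 231K and 0 in 232P, and within replicate 2 it was 0.108, 0 and 0.0755, so that 231K was higher than WT in the former and lower in the latter.

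The fold enrichment at the start site was compared with limma across the genes that had a TSS mark in all 6 samples. No protocadherin of the clusters entered this test, as none had a value. Of the 1708 genes that did, 0% had an adjusted p under 0.05 in 231K, in 232P or in both lines together against WT. Without adjustment, limma gave 51 genes under 0.05 in 231K, 66 in 232P and 61 in both lines together.

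The clusters held too few peaks for a test between them, and their difference from the flanks was within the spread between samples. The covered percent of PCDHA exceeded that of PCDHB by 0.0407 ± 0.180 percentage points (SD, n = 6), higher in 2 samples and lower in 1, with p = 0.75 in the exact sign-flip permutation test, two-sided. PCDHA exceeded PCDHG by 0.0793 ± 0.127 (SD, n = 6), with peaks in 2 samples only, and PCDHB exceeded PCDHG by 0.0386 ± 0.0944 (SD, n = 6), with a peak in 1 sample only. With so few samples other than 0, the exact test could not go below p = 0.5 for the former and p = 1 for the latter, and it could not have reached 0.05 for PCDHA against PCDHB either. The 3 clusters together differed from the 200 kb on each side by -0.0177 ± 0.0738 percentage points (SD, n = 6), lower in 3 samples and higher in 2, with p = 0.688 in the exact test. With flanks of 500 kb the difference was -0.0588 percentage points, lower in 5 of 6 samples, with p = 0.125 in the exact test. All 4 adjusted p-values were 1 after Benjamini-Hochberg adjustment over the 4 exact tests with flanks of 200 kb.

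The scarcity of peaks was shared with the surroundings. None of the 17 protein-coding genes in and up to 200 kb around the span, among them TAF7, a subunit of the general transcription factor TFIID, DIAPH1, a formin that nucleates actin filaments, and HDAC3, a histone deacetylase, had a TSS mark in any sample. Farther downstream lies PCDH1, a non-clustered protocadherin. Its gene body held peaks in 5 of the 6 samples, 386 to 387 kb downstream of the start of PCDHGC5, though its start site had none. The nearest peak whose -log10 q-value reached 5 lay 608 kb before the span in 232P replicate 2 and 4464 to 4951 kb before it in the other samples. After the span, it lay 3127 kb away in 231K replicate 2 and 232P replicate 2, 4825 to 4828 kb away in both WT samples and 231K replicate 1, and 10412 kb away in 232P replicate 1.

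The 1 Mb bin with the clusters had 64 start sites, more than any other bin within 15 Mb. Its covered percent was 0.0187 and 0.110 in WT, 0.0649 and 0.0481 in 231K, and 0.0255 and 0.0458 in 232P. In contrast, the bin 11 Mb before it had 2 start sites and was covered by 23.3% and 38.7% in WT, 23.9% and 39.3% in 231K, and 5.29% and 31.4% in 232P. The bin 11 Mb after it was covered by 20.5% and 26.4% in WT. The mark was thus present at a distance on both sides of the clusters. Other bins with few genes had almost none, such as the bin 2 Mb after the clusters with 3 start sites and 0% covered in every sample, and the bin 4 Mb before them with 1 start site and at most 0.0363%.

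**Figure D3:**
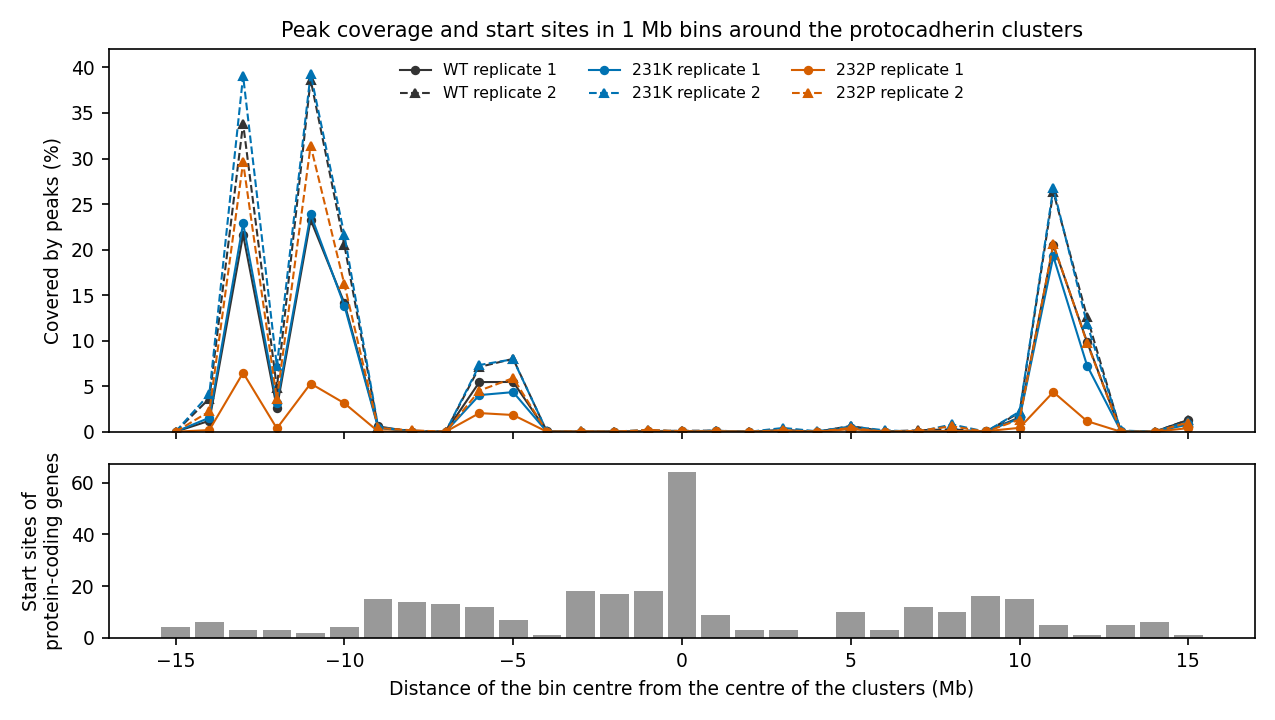
Percent of each 1 Mb bin covered by peaks in the 6 samples (upper) and number of start sites of protein-coding genes per bin (lower) against the distance from the centre of the clusters in Mb. The bin at 0 holds 64 start sites and at most 0.110% is covered, against 5.29 to 39.3% in the bin at -11 Mb.

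A stretch of this size without the mark was common in the genome. Windows of 727 kb were laid side by side along the autosomes and X, which gave 4158 windows. In each sample, between 39.1% and 44.7% of them had no covered base. The mean covered percent of the protocadherin span over the 6 samples was 0.0462, and 43.2% of all windows were at or below it. Of the 581 windows with at least 10 start sites 28.1% were at or below it, and of the 159 windows with at least 20 start sites 18.2%. The median of the latter was 1.90% covered. The span with its 56 start sites was therefore in the lower part of the gene-rich windows, but not at an extreme.

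Some other cadherin genes carried the mark. Of the 12 non-clustered protocadherins, which are adhesion proteins encoded by separate genes, 4 (33.3%) had a TSS mark in at least 1 sample. Over all protein-coding genes this share was 19.2%. In all 6 samples, 1 of the 12 (8.33%) had a TSS mark, beside 8.52% of all genes. PCDH10 had it in all 6, with fold enrichments of 3.18 and 4.20 in WT, 3.80 and 4.16 in 231K, and 4.28 and 3.97 in 232P. Its levels overlapped between groups, and the log2 difference from WT was 0.06 ± 0.26 (SE) in 231K and 0.38 ± 0.26 in 232P, with limma adjusted p-values of 0.988 and 1.00. PCDH7 reached a fold enrichment of 5.96 and 8.41 in WT, 5.33 and 5.42 in 231K and 4.79 in 232P replicate 1, and no peak in 232P replicate 2. PCDH11X reached a fold enrichment of 6.75 and 4.62 in WT, 7.38 and 5.42 in 231K and 5.65 in 232P replicate 1, and no peak in 232P replicate 2. PCDH8 had a TSS mark in all samples but 231K replicate 2, with a fold enrichment between 2.96 and 4.10. The remaining 8, PCDH1, PCDH9, PCDH12, PCDH15, PCDH17, PCDH18, PCDH19 and PCDH20, had none in any sample.

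Type II cadherins, classical adhesion molecules of neurons and other cells, and HOX genes, the clustered patterning genes that are textbook targets of the mark, were chosen for comparison after the members' values were seen and carry no test. Of the 13 type II cadherins, 9 had a TSS mark in at least 1 sample and 5 in all 6. CDH6 reached a fold enrichment of 4.58 and 7.88 in WT, 7.15 and 9.34 in 231K, and 6.96 and 6.62 in 232P. Of the 39 HOX genes, 29 had a TSS mark in at least 1 sample and 25 in all 6. Averaged over the 6 samples, the share with a TSS mark exceeded that of the clustered protocadherins by 29.2 percentage points in the non-clustered ones. The difference was 53.8 percentage points in type II cadherins and 67.9 in HOX genes. As the clustered protocadherins were at 0 in every sample, each difference is the other list's own share. Any list with a marked gene in each sample would lie above them. All protein-coding genes had shares of 11.8% to 15.7% per sample.

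**Figure D4:**
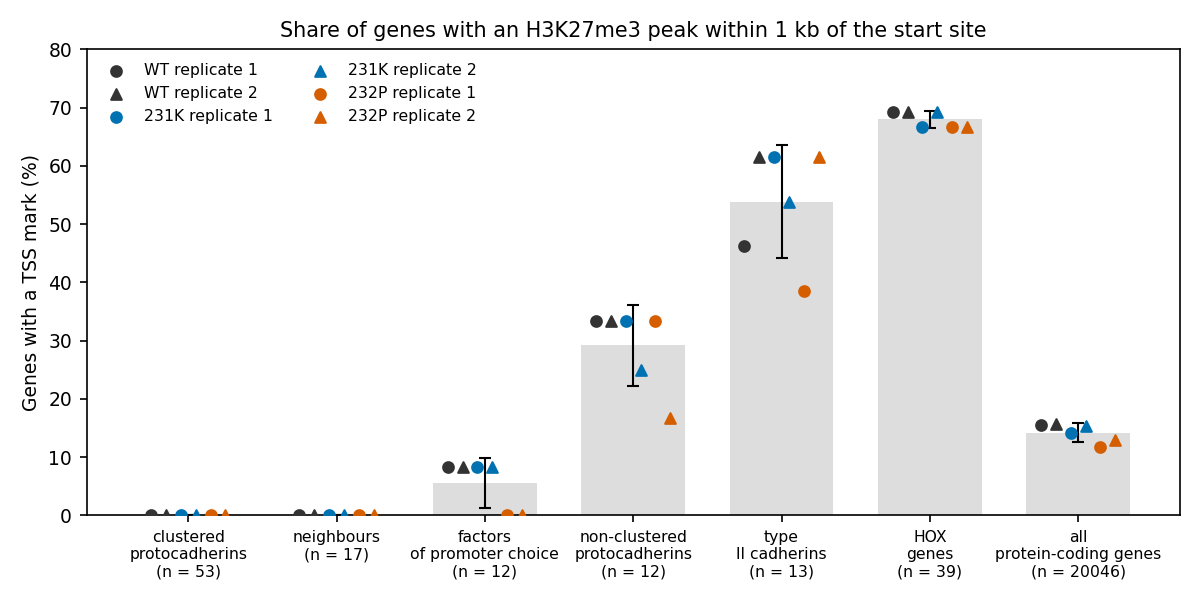
Share of genes with a TSS mark in percent for 7 gene lists, with a point per sample, the mean over the 6 samples as a bar and the SD over samples as an error bar. The clustered protocadherins and their neighbours are at 0 in every sample, and HOX genes are at 66.7 to 69.2%.

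Among genes that act on protocadherin promoters and among partners of the proteins, 1 gene of each list had a TSS mark, beside 19.2% of all genes with one in at least 1 sample. Of 12 factors of promoter choice, among them CTCF and the cohesin subunits RAD21, SMC1A, SMC3 and STAG1, the cohesin loader NIPBL and release factor WAPL, the chromatin factors SMCHD1, SETDB1 and WIZ and the DNA methyltransferase DNMT3B, 1 had a TSS mark. This was STAG2, a cohesin subunit on the X chromosome, with a fold enrichment of 3.97 and 3.36 in WT, 3.69 and 4.17 in 231K and no peak in either 232P sample. STAG2 thus belongs to the 8.55% of genes that lost the mark in 232P by the rule above. Of 5 partners and processing enzymes, the kinases PTK2 and PTK2B, the protease ADAM10, the actin regulator WASF1 and the kinase ROCK1, only ROCK1 had a TSS mark, in 231K replicate 2 alone.

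Markers of the cell type were read as presence or absence of the mark and not as expression. The noradrenergic markers PHOX2A, HAND2, GATA2, GATA3, ISL1, TH and DBH had no TSS mark in any sample. Among markers of other cell types, ALB of hepatocytes had a TSS mark in all 6 samples, PAX6 of forebrain progenitors in 5 and MYOD1 of muscle in 3, while PTPRC of leukocytes had none.

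The promoters of the members are poor in CG pairs. A RefSeq promoter of 300 bases (GRCh38.p14) was matched for 47 of 53 members and for 15344 protein-coding genes. The members had a median of 7 CG pairs, between 2 in PCDHGA4 and 27 in PCDHAC1, against a median of 22 over all genes. The C-type genes had more than most, with 27 in PCDHAC1, 23 in PCDHGC4, 18 in PCDHGC3 and 15 in PCDHAC2. CGCT was found on either strand in 46 of 47 member promoters, with PCDHA9 as the exception, against 81.5% of all promoters. The window of PCDHA9 was set by a start at chr5:140848382, while the first annotated start of the gene is at chr5:140847772. The bases before that first start were not searched. On the plus strand within the last 120 bases before the RefSeq start it was found in 44 of 47, or 93.6%. The same search over all promoters, whose own strand was read, gave 40.0%. A match to such letters describes the sequence and is neither a bound site nor by itself the whole element.

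Over all protein-coding genes, TSS marks were more frequent at promoters with few CG pairs, where most members lie. With 0 to 4 CG pairs, 43.7% of genes had a TSS mark in at least 1 sample and 22.5% in all 6, and 6 members are in this class. With 5 to 9 pairs, 24.9% had one in at least 1 sample and 12.3% in all 6, and 27 members are in this class. With 25 or more pairs, 10.9% had one in at least 1 sample and 3.82% in all 6, and 1 member is in this class. The members' count of 0 therefore stands beside a higher share for genes with similar promoters than for all genes.

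**Figure D5:**
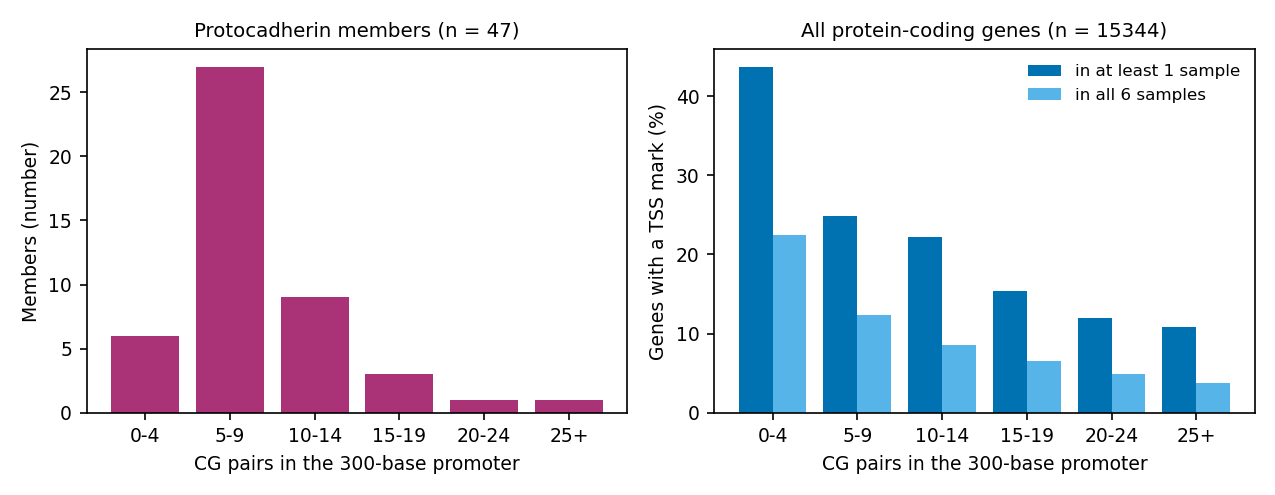
Number of members (left) and percent of all protein-coding genes with a TSS mark in at least 1 or in all 6 samples (right) by the number of CG pairs in the 300-base promoter. Of the 47 members 27 have 5 to 9 pairs, a class in which 24.9% of all genes have a TSS mark in at least 1 sample.

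Depth sets what a missing peak means. At the lowest local background of each list, the lowest summit called had 5 reads in every sample, which is a fold enrichment between 2.38 in WT replicate 1 and 2.98 in 232P replicate 1. Where the local background was higher, summits of a lower fold enrichment were called, such as one of 2.13 in PCDH1 in 231K replicate 2. The number of reads is not in the lists. The relative depth was estimated as the lowest local background divided by the smallest peak width, which was taken as the fragment length. With WT replicate 1 set to 100%, this estimate was 66.6% in WT replicate 2, 94.8% and 68.7% in 231K, and 68.1% and 56.9% in 232P. The genes of the clusters are similar in sequence, and a read that matches several of them cannot be placed uniquely. In the 2 kb around the start sites, the median share of 120-base windows that occur 1 time in hg38 was 100% over the 53 members. The lowest was 74.2% in PCDHB8 and PCDHB13, followed by 80.2% in PCDHGB4 and PCDHGB5. Over the whole clusters, the share was 98.8% in PCDHA, 96.9% in PCDHB and 99.0% in PCDHG.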

How the data were processed

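H3K27me3 ChIP-seq gave 1 deposited peak list per sample, not pooled. The 6 input samples were not analysed here. The authors used trimmomatic for trimming, BWA for alignment to hg38 and MACS (version 2) for peaks. Their methods name the broadPeak setting, while the deposited lists have the narrowPeak columns. The submitters' processing notes name BWA, deepTools and hg38. The threshold, the control library and the treatment of duplicate reads are not given in the sources used here. The deposited ratio is the fold enrichment at the summit. Columns with the deposited -log10 p-value and -log10 q-value refer to the same position, and the deposited score repeats the latter on a scale of 10. None is normalized between samples. All peaks of both 232P lists carry names with 231P, which the study uses for another Tau-KO line, and samples were assigned by label. The lists held 285826 and 222191 peaks in WT, 271413 and 212347 in 231K, and 147118 and 199677 in 232P. Every list is longer than the study's methods state for its peaks, so the peaks used here are not the sets described there.

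Genes and canonical start sites came from GENCODE release 44. A TSS mark was a peak overlapping the window of 1 kb on each side by at least 1 bp. Reads at the summit and the local background were recovered from fold enrichment and p-value with the Poisson distribution of scipy 1.17.1, within 0.001 for 100% of peaks. Total reads are not in the lists, so no interval from read counts can be given. Thinning took heights to the shallowest library with a -log10 p-value threshold of 2.50. Exact permutation tests went through every assignment of the samples to groups, or every combination of signs. limma 3.58.1 was run on the log2 fold enrichment at the TSS without pseudocount, centred on the sample median. On simulated data for 231K against WT over 1708 genes, limma called 69% of genes changed by 1 and 100% of those changed by 2 on the log2 scale. In the measured data, the SE for 231K minus WT differed between genes. It ran from 0.254 in HOXB4 to 0.456 in HOXB5 among the protocadherin, cadherin, HOX and marker genes in the fit. The share called at each SE was not tested, so the 69% and 100% do not hold for every gene. Uniqueness was counted over windows of 50 and 120 bases on both strands.

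Values per sample were given for the C-type genes, members with a lost or gained mark, members called by limma, the 2 highest and 2 lowest members per cluster by fold enrichment, which here all tied and were taken by position, and the first and last gene of each cluster. The members, the gene lists and the tests were chosen with earlier results of these data known. Alternatives were a minimum -log10 q-value of 5, a q-value under 0.05, equal numbers of strongest peaks (147118), thinned lists, any annotated start, a window of 2.5 kb, 500 bp covered, peaks joined within 1 kb, flanks of 500 kb, no centring, more genes in limma, the replicate number as a block and leaving out each sample. The results for 2 items are not reported here.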

Additional observations from a re-analysis of the deposited data

How the results depend on the processing

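Of 243 alternative values for 20 results, none crossed a threshold and 16 changed sign. All 16 were differences in covered percent that rest on few peaks and are not past a threshold in any setting. Most of the 243 could not have crossed one, so this count does not show that the results are stable. The exact tests against WT cannot go below p = 0.333 with 2 against 2 samples or p = 0.0667 with 4 against 2. Counts of lost or gained marks and of members in limma carry no test. No member had a TSS mark under the alternatives, except PCDHA1 with the window of 2.5 kb, in WT replicate 1 and 231K replicate 1, which moved the mean number of members from a difference of 0 to -0.5 for 232P minus WT and -0.25 for the Tau-KO samples together. With a minimum -log10 q-value of 5, no peak was left in the clusters or the flanks of 200 kb, and every difference in covered percent was 0. For 231K minus WT, the difference in covered percentage points turned to 0.00527 with a q-value under 0.05 and to 0.00527 with thinned lists, and it ranged from -0.0728 to 0.0349 when each sample was left out. For 232P minus WT, it turned to 0.00816 with a q-value under 0.05, 0.0377 with an equal number of strongest peaks and 0.00816 with thinned lists, and ranged from -0.0699 to 0.0377 when each sample was left out. For the Tau-KO samples together, it turned to 0.00672, 0.0189 and 0.00672 under the same settings and ranged from -0.0713 to 0.0363. Without WT replicate 2, the differences were 0.0349, 0.0377 and 0.0363 in that order, without 231K replicate 2 that of 231K was 0.0159, and without 232P replicate 1 that of 232P was 0.0217. PCDHA minus PCDHB turned to -0.0386 with an equal number of strongest peaks and ranged from -0.00887, without WT replicate 2, to 0.0951. The 3 clusters minus the flanks ranged from -0.0364 to 0.00772, the latter without 232P replicate 1, when each sample was left out, and the difference was -0.0588 with flanks of 500 kb. The cause was not tested.

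With a replicate block, the differences were the same, -0.0190, -0.0161 and -0.0175 percentage points, with exact p-values of 1, 1 and 0.667. Peak widths and summit heights separated the replicate numbers in every genotype. The fold enrichment at the TSS gave little sign of pairing, as same-numbered samples correlated in their deviations from the group means with r = 0.0920, 0.118 and 0.0952 across 1708 genes, which are not independent replicates, so no block was used in the reported fits. limma called 0 genes at an adjusted p under 0.05 in each contrast with and without the replicate block and under every other alternative run, with 68, 79 and 76 genes under an unadjusted 0.05 with the block. Members of the clusters entered limma under none of them. Depth differs between the lists, and no summit under 5 reads was called at the lowest local background of a list.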
